A study of Mus musculus with 8 samples.

Results

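The genes described here encode the metalloproteases that cut extracellular matrix and cell surface proteins, together with their inhibitors. They were chosen by name: every array probe, controls left out, whose gene symbol began with Mmp, Adam, Adamts or Timp followed by a digit. This gave 70 genes with 123 probes, of 27670 genes with 41174 probes on the array. They comprised 15 secreted matrix metalloproteases (MMPs), 6 membrane-type MMPs, 28 ADAMs, 17 ADAMTS genes and 4 TIMPs. A gene was measured where at least 1 of its probes was well above background on both arrays of at least 1 group, which held for 45 of the 70 genes and for 18153 genes in all.

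Liver RNA came from C57BL/6 mice aged 6 months in 4 groups. Knockout mice (KO) carried 2 floxed Dicer1 alleles and a Cre recombinase driven by the albumin promoter, which acts in hepatocytes; their Dicer1 loxP/loxP littermates served as controls and are called wild type (WT), as in the labels. Dicer1 makes mature microRNAs from their precursors. Mice of each genotype received intraperitoneally either the vehicle dimethylsulfoxide or N-ethyl-N-nitrosourea (ENU), a mutagen that alkylates DNA, in 1 dose of 120 mg/kg, in a volume of 2 ml/kg. The ENU groups were examined 15 days after the dose, and no day is given for the vehicle groups. How many mice stand behind a sample is not stated. Whether liver cells other than hepatocytes also lost Dicer1 cannot be read from whole liver RNA.

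Each group had 2 one-colour Agilent arrays. The 2 arrays of a group differed by no more than spot noise and enter as 1 RNA sample, which leaves 4 RNA samples in the study. Over the 45 measured members the 2 arrays of a group differed by a median of 0.07 log2 units. Levels below are log2 signals relative to the array's 75th percentile, averaged over the 2 arrays of a group. They compare groups for 1 probe and do not rank different genes. A Dicer1 probe stood at -1.86 in WT on vehicle, -2.51 in WT after ENU, -4.32 in KO on vehicle and -4.02 in KO after ENU. A second Dicer1 probe stood at 1.12, 0.42, 0.63 and 0.17 in the same order, and the deposited files do not say which of them lies in the deleted part. The labels call the mice female, while probes of 4 Y-linked genes exceeded background on each of the 8 arrays.

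Genotype and treatment were fitted together by limma over the 4 RNA samples, with p-values adjusted by Benjamini-Hochberg over all 18153 genes. "Rose" and "fell" are used only for genes with an adjusted p under 0.05 in that fit. A comparison of 1 group with another sets 1 RNA sample against 1 and has no test, so there "higher" and "lower" by over 2-fold is a description. The p-values measure only the spread between these 4 samples. Where levels are said not to overlap between genotypes, both KO levels lay on 1 side of both WT levels. The share of all genes that do so was not counted. Of the 18153 genes, 6445 were higher and 8525 lower in KO under both treatments, so a shared direction alone is common. In whole liver RNA, more cells of a type and more RNA per cell cannot be told apart.

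MMPs are zinc endopeptidases made as inactive proenzymes; most are secreted and cut collagens, gelatins, laminins and other matrix proteins, while the membrane-type enzymes act at the cell surface. ADAMs are membrane-anchored relatives, several of which release the outer part of growth factors, cytokines and receptors, and some of which have lost the catalytic site and act in adhesion. ADAMTS enzymes are secreted and carry thrombospondin repeats; groups of them cut proteoglycans, process procollagens or cut von Willebrand factor. TIMPs bind the active site of MMPs and, depending on the TIMP, of some ADAMs and ADAMTS enzymes. In injured liver, matrix proteases and TIMPs are known from activated stellate cells, macrophages, neutrophils and bile duct cells.

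The main difference lay between the genotypes. In KO, 26 of the 45 measured members rose and 1 fell, where 16.9% of the 18153 genes rose and 15.3% fell. Over all genes this was 3062 up and 2778 down, a split that moved to 2399 and 4172 with normexp and to 2737 and 4884 with median centring. The median member was 1.50 log2 units higher in KO, and the median of all genes was 0.12 lower. Over 2-fold higher in KO under both treatments were 25 members, against 12.8% of genes, and 1 member was over 2-fold lower under both, against 7.54%. None was over 2-fold in opposite directions under the 2 treatments, as 0.308% of genes were. On vehicle 29 members were over 2-fold higher (17.3% of genes) and 1 was lower (11.1%). After ENU 27 were higher (16.2%) and 2 lower (14.2%). All these counts use the measured signal, also of groups not well above background (dim), where the fold is only a bound. On vehicle the bounds of Adam5 (1.08-fold), Adam19 (1.74-fold), Adamts3 (1.59-fold) and Adamts16 (1.48-fold) lie under 2-fold. Adamts6, Mmp12 and Mmp13 were dim in both genotypes there. After ENU the bounds of Adamts16 (1.16-fold) and Mmp12 (1.83-fold) lie under 2-fold.

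The rule for a measured gene lets in genes that are bright in only 1 group, so counts over measured genes are not independent of the differences. Of the 45, 10 were not well above background in at least 1 WT group, and 6 of these were among the 26 that rose. Over the genes whose probe was well above background on all 8 arrays, a restriction chosen after the data were seen, 19 of 30 members rose (63.3%) and 2 fell, against 14.8% and 25.6% of 14553 genes. Of these 30 members 16 were over 2-fold higher in KO under both treatments, against 8.11% of genes. The counts over 2-fold depended on the background correction: with normexp, 14 members were over 2-fold higher in KO on vehicle and 16 after ENU, while 21 still rose. Over the 35 members measured in all groups, normexp moved the fold by over 1.5 times in 14, and its values are given with these members. The 39 member probes that were above background on no array had a median 0.73 log2 units lower in KO than in WT on vehicle and 0.57 lower after ENU, so the floor itself was lower in KO after scaling.

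Of 9 measured secreted MMPs 7 rose, of 14 ADAMTS genes 11 rose, and of 3 TIMPs 2 rose. Of 4 membrane-type MMPs 2 rose, and of 15 ADAMs 4 rose and 1 fell. The median KO difference was 2.10 log2 units for the secreted MMPs, 1.55 for ADAMTS, 1.50 for the TIMPs, 0.45 for the membrane-type MMPs and 0.23 for the ADAMs. Over probes above background on all 8 arrays, 3 of 4 secreted MMPs, 2 of 4 membrane-type MMPs, 4 of 11 ADAMs, 7 of 8 ADAMTS genes and 3 of 3 TIMPs rose. Differences between classes were not tested.

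**Figure D1:**
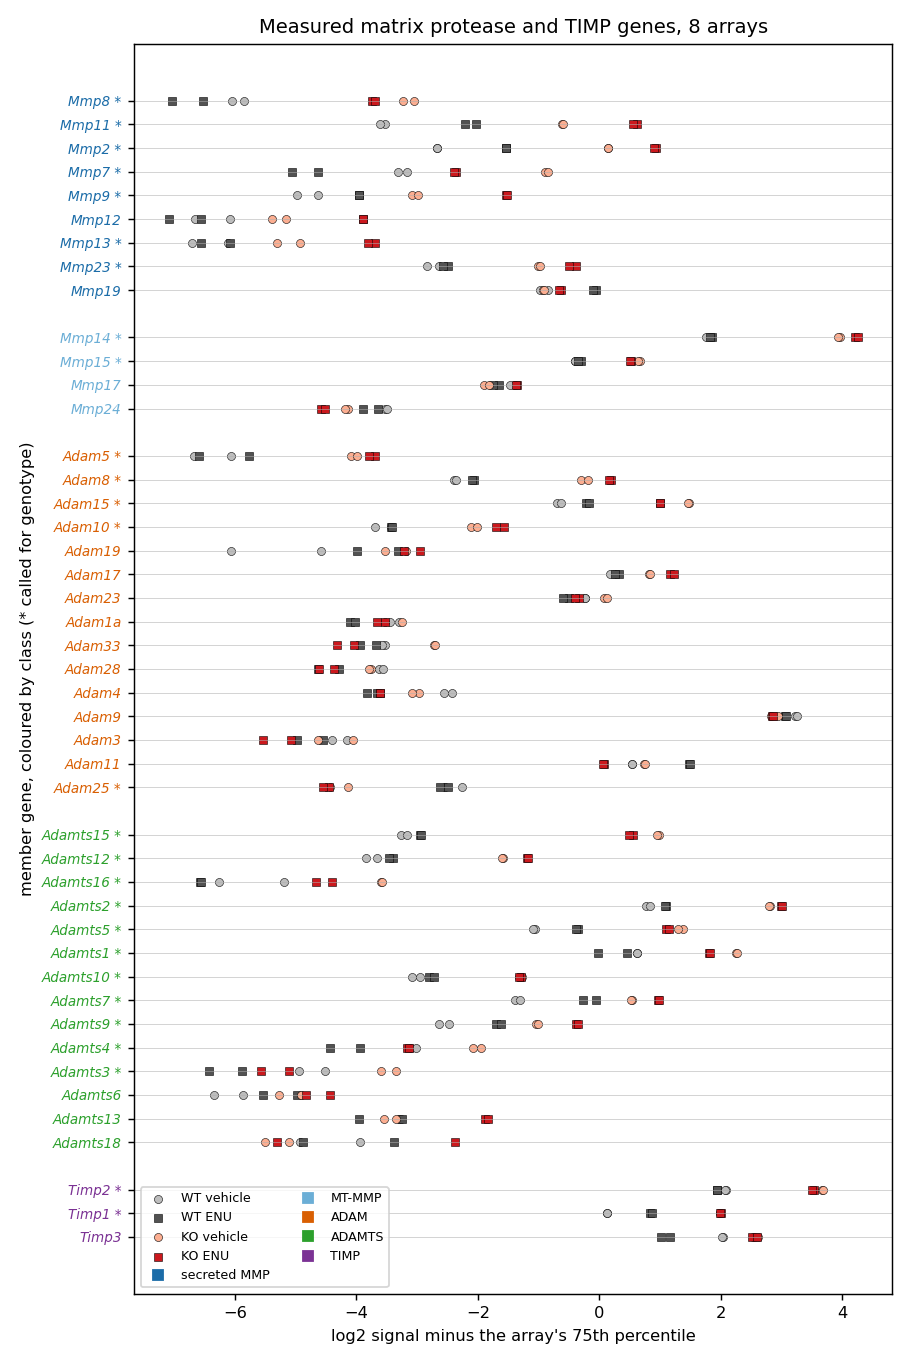
Level of each measured member on each of the 8 arrays, as log2 signal minus the array's 75th percentile (x axis). Each row is 1 gene, coloured by class, with circles for vehicle and squares for ENU, light grey for WT vehicle, dark grey for WT ENU, pale red for KO vehicle and full red for KO ENU; an asterisk marks the 27 genes that rose or fell. The 2 arrays of a group lie close together for most rows, and red symbols lie to the right of grey ones in most MMP, ADAMTS and TIMP rows, with Adam25 the reverse.

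**Figure D2:**
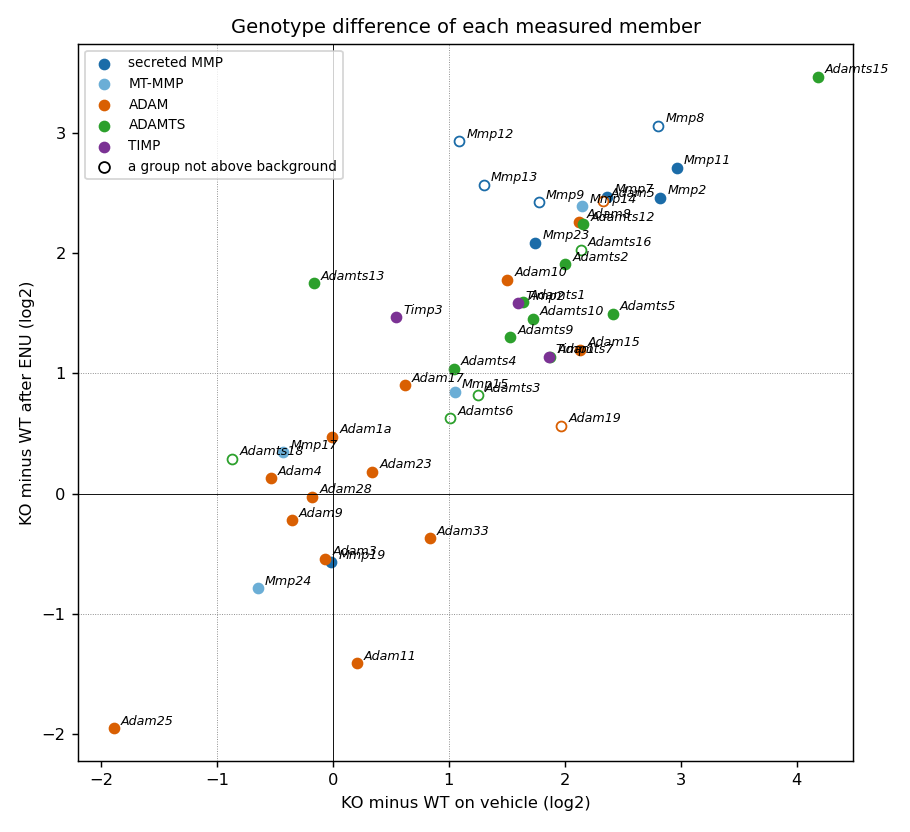
KO minus WT of each measured member on vehicle (x axis) and after ENU (y axis), in log2 units, coloured by class; open symbols have a group that was not above background. Dotted lines mark 2-fold. The upper right corner holds 25 members, led by Adamts15 at 4.18 and 3.47, and the lower left holds Adam25.

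Among the secreted MMPs, both gelatinases were higher in KO. Mmp2, gelatinase A, a product of stellate cells and fibroblasts, was probed at chr8:91446191-91446250 (mouse build mm7, as for all probe positions below). Its level was -2.67 in WT on vehicle, -1.54 in WT after ENU, 0.15 in KO on vehicle and 0.92 in KO after ENU. Both KO levels lay above both WT levels, by 7.07-fold on vehicle and 5.51-fold after ENU (3.90-fold and 4.34-fold with normexp). The KO difference of Mmp2 was 2.64 ± 0.20 log2 units (SE; adjusted p = 0.0104). Mmp9, gelatinase B, found in neutrophil granules and macrophages, was probed at chr2:164695457-164695516. Mmp9 was at -4.81 and -3.96 in WT on vehicle and after ENU, and at -3.03 and -1.53 in KO. WT on vehicle was not well above background, so the fold there is a bound of at least 2.17-fold; after ENU Mmp9 was 5.37-fold higher in KO, and 2.27-fold with normexp. The fit called Mmp9 as risen (adjusted p = 0.0145), but it did not pass with normexp (adjusted p = 0.0622).

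Mmp11, stromelysin-3, which is activated inside the cell by furin, is known from stromal fibroblasts around tumours and wounds. It was probed at chr10:75578932-75578991 and stood at -3.57 in WT on vehicle, -2.12 in WT after ENU, -0.61 in KO on vehicle and 0.59 in KO after ENU. In KO, Mmp11 was higher by 7.83-fold on vehicle and by 6.56-fold after ENU, and its KO difference was 2.84 ± 0.19 log2 units (adjusted p = 0.0101). With normexp the folds of Mmp11 were 3.12 and 4.50 (adjusted p = 0.00792). The groups did not overlap and lay in the order WT vehicle, WT ENU, KO vehicle, KO ENU, as those of Mmp2 did. Mmp23, a small enzyme released by furin cleavage of its membrane anchor and counted here with the secreted class, stood at -2.74 and -2.53 in WT and at -0.99 and -0.44 in KO. It was 3.36-fold and 4.26-fold higher in KO (adjusted p = 0.0129), or 2.01-fold and 2.82-fold with normexp. Mmp19 did not pass the test (adjusted p = 0.364) and stood at -0.91 and -0.08 in WT and at -0.92 and -0.65 in KO.

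Mmp7, Mmp8, Mmp12 and Mmp13 lie in the MMP cluster of chromosome 9. Mmp7, matrilysin, an enzyme of ductal and glandular epithelia, was probed at chr9:7695434-7695493. It stood at -3.24 in WT on vehicle, -4.85 in WT after ENU, -0.87 in KO on vehicle and -2.38 in KO after ENU. KO exceeded WT under both treatments, by 5.15-fold and 5.54-fold, and the KO difference was 2.42 ± 0.18 (adjusted p = 0.0103). In WT after ENU Mmp7 was well above background on 1 of the 2 arrays only. With normexp its folds were 2.62 on vehicle and 1.70 after ENU (adjusted p = 0.0228). Mmp8, neutrophil collagenase, was probed at chr9:7566361-7566420 and was not well above background in either WT group. Its levels in KO were -3.15 on vehicle and -3.72 after ENU, at least 2.01-fold and at least 2.05-fold higher than in WT. Mmp8 rose in the fit (adjusted p = 0.0101) but did not pass with normexp (adjusted p = 0.0648), and its size is known only through these bounds.

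Mmp12, macrophage elastase, and Mmp13, collagenase-3, were well above background in KO after ENU and in no other group. Mmp12 was at -3.89 there, at least 1.83-fold above WT after ENU, and did not pass the test (adjusted p = 0.0512). It passed with quantile normalization (0.0446). With the mean of all probes the adjusted p was 0.0453, but Mmp12 has 1 probe and its difference of 2.01 was unchanged. The difference was 2.16 without the first WT vehicle array and 2.07 without the second KO vehicle array. Mmp13 was at -3.76 there, at least 2.00-fold above WT. The fit called Mmp13 as risen (adjusted p = 0.0309), but the call was lost with normexp (adjusted p = 0.931) and without the second WT vehicle array (adjusted p = 0.0521). Under normexp the differences on vehicle turned, to -0.11 for Mmp12 and -0.20 for Mmp13.

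The promoters of this cluster are shown because 6 of its 8 member genes with a RefSeq window hold the same short motif; the other 2, Mmp8 and Mmp20, are shown beside them. The sequences are the 250 bases before the RefSeq start of each gene (GRCm38.p6), all on the plus strand. The windows are chr9:7691840-7692089 for Mmp7, chr9:7347124-7347373 for Mmp12, chr9:7272264-7272513 for Mmp13, chr9:7445572-7445821 for Mmp3, chr9:7502092-7502341 for Mmp10, chr9:7463891-7464140 for Mmp1a, chr9:7558179-7558428 for Mmp8 and chr9:7627981-7628230 for Mmp20. Capitals mark the letters TGAGTCA, or TGACTCA where they stand on the other strand, which are those of an AP-1 site.
Mmp7: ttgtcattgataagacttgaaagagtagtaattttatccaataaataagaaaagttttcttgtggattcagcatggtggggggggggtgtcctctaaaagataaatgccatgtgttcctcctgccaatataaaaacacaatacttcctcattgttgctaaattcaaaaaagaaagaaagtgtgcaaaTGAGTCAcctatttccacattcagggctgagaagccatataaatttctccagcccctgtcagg
Mmp12: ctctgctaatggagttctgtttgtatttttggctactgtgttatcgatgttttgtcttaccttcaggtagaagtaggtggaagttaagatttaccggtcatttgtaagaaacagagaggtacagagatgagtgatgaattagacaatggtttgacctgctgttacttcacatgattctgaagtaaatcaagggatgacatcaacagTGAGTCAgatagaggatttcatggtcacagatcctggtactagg
Mmp13: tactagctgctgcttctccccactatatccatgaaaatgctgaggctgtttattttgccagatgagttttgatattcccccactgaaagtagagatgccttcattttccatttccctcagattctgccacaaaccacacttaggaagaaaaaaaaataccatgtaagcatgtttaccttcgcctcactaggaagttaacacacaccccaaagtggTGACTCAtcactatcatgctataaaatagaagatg
Mmp3: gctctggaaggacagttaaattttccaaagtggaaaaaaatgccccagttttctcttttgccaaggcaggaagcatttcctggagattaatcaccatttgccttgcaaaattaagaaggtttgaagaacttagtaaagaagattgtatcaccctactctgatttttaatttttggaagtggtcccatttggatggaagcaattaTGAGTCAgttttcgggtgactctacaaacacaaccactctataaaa
Mmp10: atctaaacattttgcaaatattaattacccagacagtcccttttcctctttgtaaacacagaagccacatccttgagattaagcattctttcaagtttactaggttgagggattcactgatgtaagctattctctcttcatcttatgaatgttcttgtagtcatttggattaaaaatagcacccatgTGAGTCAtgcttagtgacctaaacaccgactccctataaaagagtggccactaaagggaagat
Mmp1a: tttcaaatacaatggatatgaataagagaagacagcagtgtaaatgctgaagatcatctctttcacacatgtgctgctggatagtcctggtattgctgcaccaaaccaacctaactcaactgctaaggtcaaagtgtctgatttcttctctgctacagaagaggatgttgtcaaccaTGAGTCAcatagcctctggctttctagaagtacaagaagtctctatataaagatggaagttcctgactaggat
Mmp8: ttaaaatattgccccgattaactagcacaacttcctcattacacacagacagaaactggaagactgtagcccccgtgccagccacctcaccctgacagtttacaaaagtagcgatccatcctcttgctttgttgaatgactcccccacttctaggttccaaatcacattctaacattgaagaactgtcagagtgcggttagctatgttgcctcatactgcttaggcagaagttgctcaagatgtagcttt
Mmp20: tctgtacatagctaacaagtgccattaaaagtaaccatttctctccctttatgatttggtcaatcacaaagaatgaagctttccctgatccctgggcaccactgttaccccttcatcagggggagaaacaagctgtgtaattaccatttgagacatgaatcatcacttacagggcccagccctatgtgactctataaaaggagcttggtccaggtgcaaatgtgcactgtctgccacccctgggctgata
In the 6 windows with a match it begins 35 to 73 bases before the start. The same search, over 250 bases before to 50 after the start, found a match in 9 of the 41 members that have a window in the table (22.0%), against 1607 of 27025 genes (5.95%). Of these 9 members 6 share this cluster, and the other 3 were Adam19, Adam29 and Adam1b. Of the 17 members with a window that rose, 2 had a match, Mmp7 and Mmp13. Of the 14 that were not measured, 5 had one, Mmp3, Mmp10 and Mmp1a among them. Mmp8, which rose, and Mmp20, which was not measured, have windows without a match, and so has a second RefSeq start of Mmp7 and of Mmp12. Thus the letters occurred both in promoters of genes that rose and in those of genes that stayed at background; binding was not measured.

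Of the membrane-type MMPs, Mmp14 (MT1-MMP) cuts collagen at the cell surface and activates the Mmp2 proenzyme. It was probed at chr14:49308207-49308266 and stood at 1.80 in WT on vehicle, 1.84 in WT after ENU, 3.95 in KO on vehicle and 4.23 in KO after ENU. Both KO levels lay above both WT levels, by 4.44-fold and 5.25-fold, and Mmp14 rose by 2.27 ± 0.19 log2 units (adjusted p = 0.0106). A second Mmp14 probe gave 2.24. Mmp15 (MT2-MMP), an enzyme of epithelial cells among others, stood at -0.40 and -0.33 in WT and at 0.65 and 0.52 in KO. It rose by 0.95 ± 0.19 (adjusted p = 0.0329), a difference of 2.07-fold on vehicle and 1.80-fold after ENU.

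The other measured membrane-type enzymes did not pass the test. Mmp24 was lower in KO under both treatments, at -3.51 and -3.77 in WT and at -4.16 and -4.56 in KO (adjusted p = 0.0538). With quantile normalization it fell (adjusted p = 0.0405), as it did with median centring (0.0276) and with normexp (0.0451). Among the genes above background on all 8 arrays the adjusted p was 0.0291. The difference of -0.72 was the same there, since only the set of genes fitted changed. Mmp17, held to the membrane by a lipid anchor, stood at -1.43 and -1.70 in WT and at -1.86 and -1.36 in KO, so its groups interleaved (adjusted p = 0.912).

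Adamts15 had the largest KO difference of the measured members. This enzyme, able to cut proteoglycans such as versican and aggrecan, was probed at chr9:30800473-30800532. It stood at -3.22 in WT on vehicle, -2.95 in WT after ENU, 0.97 in KO on vehicle and 0.53 in KO after ENU. KO was 18.2-fold higher on vehicle and 11.1-fold higher after ENU, and the KO difference was 3.83 ± 0.25 log2 units (adjusted p = 0.0101). With normexp the folds of Adamts15 were 7.78 and 6.11 (adjusted p = 0.00478).

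The other proteoglycan-cutting enzymes of the class were Adamts1, Adamts4, Adamts5 and Adamts9. Adamts5, a major aggrecan-cutting enzyme of cartilage, stood at -1.08 and -0.37 in WT and at 1.34 and 1.13 in KO, which was 5.33-fold higher on vehicle and 2.83-fold higher after ENU (adjusted p = 0.0208). Adamts1 stood at 0.62 and 0.22 in WT and at 2.26 and 1.81 in KO, 3.11-fold and 3.02-fold higher (adjusted p = 0.0138). Adamts9 stood at -2.56 and -1.66 in WT and at -1.02 and -0.36 in KO, 2.89-fold and 2.46-fold higher (adjusted p = 0.0176), or 1.84-fold and 2.00-fold with normexp. None of these 3 overlapped between genotypes. Adamts4 stood at -3.06 in WT on vehicle, -4.19 in WT after ENU, -2.02 in KO on vehicle and -3.15 in KO after ENU. It rose (adjusted p = 0.0262) and was 2.06-fold and 2.05-fold higher within each treatment, yet KO after ENU lay below WT on vehicle. The call for Adamts4 was lost with normexp (1.37-fold and 1.14-fold, adjusted p = 0.145).

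Adamts2 and Adamts3 remove the amino-terminal propeptide of fibrillar procollagens. Adamts2 was probed at chr11:50760727-50760786 and stood at 0.80 and 1.09 in WT and at 2.81 and 3.0 in KO. It was 4.02-fold higher on vehicle and 3.75-fold higher after ENU, with no overlap (1.96 ± 0.18, adjusted p = 0.0117). Adamts3 was not well above background in either WT group and was at -3.48 in KO on vehicle, at least 1.59-fold higher than WT. Its call (adjusted p = 0.0351) was lost without the first WT ENU array (0.069) and without the first KO ENU array (0.061), and its direction turned with normexp (-0.02, adjusted p = 0.929).

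Adamts7 and Adamts12 are close relatives that cut the cartilage protein COMP. Adamts7 stood at -1.34 in WT on vehicle, -0.16 in WT after ENU, 0.53 in KO on vehicle and 0.98 in KO after ENU, 3.67-fold and 2.20-fold higher in KO (adjusted p = 0.0261). Adamts12 stood at -3.76 and -3.43 in WT and at -1.60 and -1.19 in KO, 4.47-fold and 4.74-fold higher (adjusted p = 0.0105). With normexp these were 1.94-fold and 2.41-fold, and with the mean of all probes 1.86-fold and 1.97-fold. Neither gene overlapped between genotypes. Adamts10, which binds fibrillin microfibrils, stood at -3.02 and -2.76 in WT and at -1.30 in both KO groups, 3.30-fold and 2.75-fold higher (adjusted p = 0.0154), or 1.79-fold and 1.77-fold with normexp. Adamts16 was dim in both WT groups and at -3.59 and -4.54 in KO, at least 1.48-fold and at least 1.16-fold higher (adjusted p = 0.0111, and 0.448 with normexp).

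Adamts6, Adamts13 and Adamts18 did not pass the test. Adamts13, the enzyme that cuts von Willebrand factor and is made in liver by stellate cells, stood at -3.28 and -3.61 in WT and at -3.45 on vehicle and -1.86 after ENU in KO. Its KO sample after ENU stood apart from the other 3 (adjusted p = 0.291), and its fold over WT after ENU was 1.81 with normexp. Adamts6 was above background only in KO after ENU, at -4.63 (adjusted p = 0.0516). With the mean of all probes the adjusted p was 0.0483, but Adamts6 has 1 probe and its difference of 0.82 was unchanged. The difference was 0.96 without the second WT ENU array and 0.92 without the first KO ENU array. Its direction turned with normexp (-0.18). The 2 arrays of KO after ENU disagreed on Adamts18, at -5.31 and -2.38. Without the second of them Adamts18 fell (adjusted p = 0.0341), where with it the adjusted p was 0.542.

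The ADAMs were mixed. Adam8, an enzyme of myeloid cells, was probed at chr7:136392816-136392875. It stood at -2.37 in WT on vehicle, -2.08 in WT after ENU, -0.24 in KO on vehicle and 0.18 in KO after ENU, with no overlap. It was 4.37-fold and 4.79-fold higher in KO and rose by 2.19 ± 0.18 log2 units (adjusted p = 0.0105). With normexp Adam8 was 2.73-fold and 3.43-fold higher. Adam15, which carries an integrin-binding motif, stood at -0.67 and -0.20 in WT and at 1.47 and 1.0 in KO. Adam15 was 4.39-fold higher on vehicle and 2.29-fold higher after ENU (1.67 ± 0.30, adjusted p = 0.0273).

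Adam10 and Adam17 are the main sheddases of cell surface proteins: Adam10 cuts Notch receptors and cadherins, and Adam17 releases tumour necrosis factor and ligands of the epidermal growth factor receptor. Adam10 was probed at chr9:70810400-70810458 and stood at -3.56 and -3.42 in WT and at -2.06 and -1.64 in KO. It was 2.83-fold higher on vehicle and 3.43-fold higher after ENU and rose (1.64 ± 0.19, adjusted p = 0.0150). With normexp the folds of Adam10 were 1.61 and 1.87, both under 2 (adjusted p = 0.0209). Adam17 stood at 0.21 and 0.30 in WT and at 0.83 and 1.20 in KO. Both KO levels of Adam17 lay above both WT levels, but the difference of 0.76 ± 0.19 did not pass (adjusted p = 0.0537). It passed with normexp (0.0288), and a second Adam17 probe gave 0.73. Among genes above background on all 8 arrays the adjusted p was 0.0284. The difference of 0.76 was the same there, since only the set of genes fitted changed.

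The 2 called ADAMs that remain are known mainly from testis. Adam25 was the member that fell, from -2.40 and -2.55 in WT to -4.29 and -4.51 in KO, 3.71-fold lower on vehicle and 3.87-fold lower after ENU (-1.92 ± 0.18, adjusted p = 0.0117). With normexp Adam25 was 2.01-fold and 2.04-fold lower. Adam5 was dim in both WT groups and at -4.04 and -3.74 in KO, at least 1.08-fold and at least 2.03-fold higher. It rose in the fit (adjusted p = 0.0104) and did not pass with normexp (adjusted p = 0.170). Both rest on 1 passing probe each.

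Adam9, Adam11 and Adam19 did not pass. Adam9, a widely expressed enzyme, was near level over the groups, at 3.24 and 3.07 in WT and at 2.89 and 2.85 in KO (adjusted p = 0.281). Adam11, a member without catalytic activity, stood at 0.54 in WT on vehicle, 1.48 in WT after ENU, 0.74 in KO on vehicle and 0.07 in KO after ENU. It was thus 2.66-fold lower in KO after ENU and 1.15-fold higher on vehicle (adjusted p = 0.341). Adam19 was dim in WT on vehicle and stood at -3.65 in WT after ENU and at -3.36 and -3.08 in KO (adjusted p = 0.0811). The 6 measured ADAMs not described so far, Adam1a, Adam3, Adam4, Adam23, Adam28 and Adam33, had KO differences between -0.30 and 0.26 log2 units, and none of them passed.

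Of the 3 measured inhibitors 2 rose, Timp1 and Timp2. Timp2, which inhibits MMPs and also takes part in activating the Mmp2 proenzyme on Mmp14, was probed at chr11:118410877-118410936. It stood at 2.08 in WT on vehicle, 1.94 in WT after ENU, 3.67 in KO on vehicle and 3.52 in KO after ENU. It was 3.02-fold and 3.0-fold higher in KO without overlap (1.59 ± 0.18, adjusted p = 0.0139). Timp1, an inhibitor known to be raised in liver fibrosis, was probed at chrX:19307699-19307758. It stood at 0.13 and 0.86 in WT and at 1.99 and 2.00 in KO. Timp1 was 3.63-fold higher on vehicle and 2.21-fold higher after ENU (1.50 ± 0.26, adjusted p = 0.0256). With the mean of all its probes it was 7.10-fold and 7.98-fold higher. That mean takes in 2 dim probes, well above background on 4 and 5 of the 8 arrays. They stood between -5.63 and -5.00 in the WT groups, so these larger folds rest on WT signals near the floor.

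Timp3, which is bound to the matrix and inhibits Adam17 and aggrecan-cutting ADAMTS enzymes as well as MMPs, did not pass (adjusted p = 0.0707). Its level was 2.03 in WT on vehicle, 1.09 in WT after ENU, 2.58 in KO on vehicle and 2.56 in KO after ENU. WT after ENU stood below the other 3, so that KO was 1.46-fold higher on vehicle and 2.77-fold higher after ENU. Timp3 passed with normexp (adjusted p = 0.0402). Among genes above background on all 8 arrays the adjusted p was 0.0366. The difference of 1.01 was the same there, since only the set of genes fitted changed. Timp4 was well above background on at most 1 array and has no fold.

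Where a gene had several passing probes, they were compared. Of the 45 measured members 17 had over 1 passing probe, and in 13 of these all passing probes had the same sign under both treatments. The exceptions were Adam23, Adamts10, Adamts12 and Mmp17. For Adamts12 the probe used gave 2.20 log2 units and the others 0.42 and 0.20, so its size depends on the probe. For Adamts10 they gave 1.59, 1.89 and -0.09. All 3 Timp1 probes were higher in KO, the one used at 1.50 and the dimmer ones at 3.42 and 3.81. The dimmer ones were well above background on 4 and 5 arrays only. The 3 Adamts2 probes ranged from 1.09 to 3.16.

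**Figure D3:**
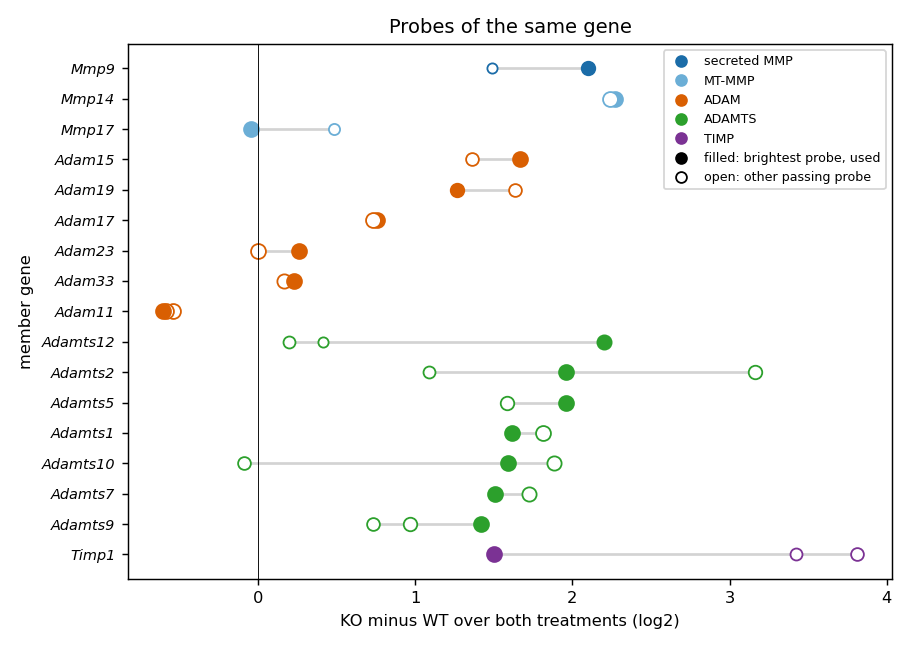
KO minus WT over both treatments (x axis, log2 units) for every passing probe of the 17 members with over 1 such probe (rows), coloured by class. Filled symbols are the probe used for the gene, open symbols the others, and larger symbols were above background on more arrays. The probes of Mmp14 lie together at 2.24 and 2.27, while those of Adamts12 run from 0.20 to 2.20 and those of Timp1 from 1.50 to 3.81.

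The 25 members that were not measured were 6 secreted MMPs (Mmp1a, Mmp3, Mmp10, Mmp20, Mmp21 and Mmp28), 2 membrane-type MMPs (Mmp16 and Mmp25), 13 ADAMs, 3 ADAMTS genes (Adamts8, Adamts19 and Adamts20) and Timp4. None of these had a probe well above background on more than 2 arrays. Adam12, known from activated stellate cells, was on none. A dim probe gives only a bound, so these genes may still be expressed below what the array measures.

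Fewer members differed by ENU than by genotype. In the fit 0 of 45 members passed the test for ENU, as did 0 of 18153 genes. The lowest adjusted p was 0.159, and at an unadjusted p under 0.05 limma gave 14 members and 3986 genes. In WT, 4 members were over 2-fold higher after ENU (7.18% of genes) and 4 were lower (5.49%). In KO, 6 were higher (4.34%) and 4 lower (5.42%). These counts use the measured signal of every group, dim ones included. With normexp they were 0 and 0 in WT and 1 and 1 in KO. All ENU arrays lay on 1 slide and all vehicle arrays on another, so ENU and slide cannot be told apart.

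Members over 2-fold in the same direction in both genotypes were few: 1 higher (1.80% of genes) and 3 lower (1.85%), of which Adamts3 was dim in both WT groups. Mmp11 was 2.73-fold higher after ENU in WT and 2.29-fold higher in KO. Mmp7 was 3.07-fold lower in WT and 2.85-fold lower in KO, and Adamts4 was 2.19-fold lower in both. Thus Mmp7 and Adamts4 were higher with KO and lower with ENU. Adamts3 has no fold in WT and was 3.64-fold lower in KO. With normexp Mmp7 was lower after ENU by 0.54 log2 units in WT and 1.17 in KO, Adamts4 by 0.57 and 0.83, and Mmp11 was higher by 0.61 and 1.15.

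Other members passed 2-fold in 1 genotype. In WT after ENU, Mmp2 was 2.20-fold higher and Adamts7 2.27-fold higher, and Adam4 was 2.37-fold lower. Adam19 was counted too, with a measured difference of 1.67 log2 units, but it was dim in WT on vehicle and the bound is at least 1.41-fold. In KO after ENU, Mmp9 was 2.83-fold higher and Adamts13 3.01-fold higher, Mmp12 was at least 2.09-fold and Mmp13 at least 2.29-fold higher, and Adam33 was 2.76-fold lower. Adamts18, on which the 2 KO arrays after ENU disagreed, was at least 2.16-fold higher. No member was over 2-fold in opposite directions in the 2 genotypes, as 0.275% of genes were.

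**Figure D4:**
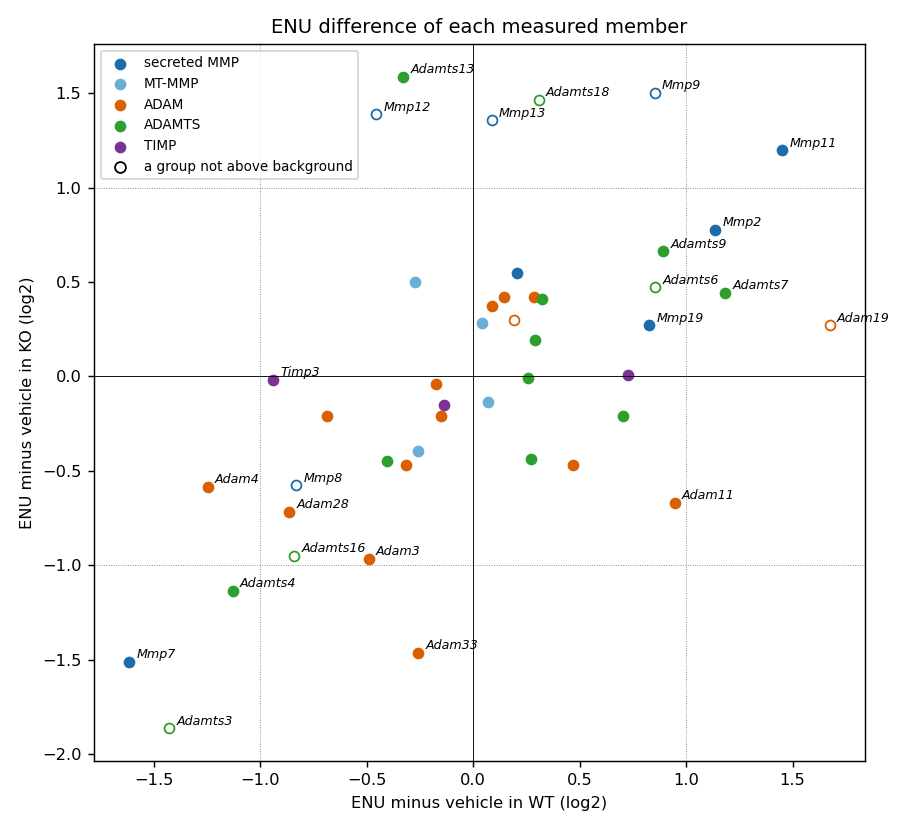
ENU minus vehicle of each measured member in WT (x axis) and in KO (y axis), in log2 units, coloured by class; open symbols have a group not above background, and dotted lines mark 2-fold. Most members lie inside the dotted lines; Mmp11 lies in the upper right, and Mmp7, Adamts4 and Adamts3 in the lower left.

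Genes that act with these proteases were taken from lists drawn up with earlier results of these data known. Their counts stand beside the 16.9% of all genes that rose and the 15.3% that fell. With normexp Adam5, Adamts3, Adamts16, Mmp8, Mmp9 and Mmp13, members dim in at least 1 WT group, lost their calls. The list genes were not checked in this way, including those dim in WT. Of 16 measured genes of the plasminogen system, which makes the plasmin that activates several pro-MMPs, 7 rose and 3 fell. Plat, tissue plasminogen activator, was 9.42-fold and 9.75-fold higher (adjusted p = 0.0101). Anxa2, a cell surface receptor for plasminogen and Plat, was 12.5-fold and 6.80-fold higher (adjusted p = 0.0112). Plau, urokinase, rose (adjusted p = 0.0125) from below background in both WT groups and was at least 2.84-fold higher after ENU. Both activators thus passed the fit, Plau from WT levels of -6.45 and -6.04, near the floor. Plasminogen itself, Plg, fell from 8.18 and 8.04 in WT to 7.28 and 7.36 in KO (adjusted p = 0.0465).

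Of 26 measured genes in a list of other matrix proteases and protease partners, 11 rose and 2 fell. A2m, a broad protease inhibitor of plasma, was below background in both WT groups, and KO exceeded WT by at least 4.20-fold on vehicle and at least 10.6-fold after ENU (adjusted p = 0.0101). Htra3, a secreted serine protease, was 5.53-fold and 6.81-fold higher (adjusted p = 0.0102). Adamtsl2, an ADAMTS-like protein without a protease domain, was 6.34-fold and 9.81-fold higher (adjusted p = 0.0105), and Ctsk, the collagen-cutting cathepsin K, was 4.75-fold and 6.05-fold higher (adjusted p = 0.0105).

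Of 32 measured partners and shed substrates of Adam10 and Adam17, 14 rose and 2 fell. Cx3cl1, a membrane-bound chemokine that both enzymes release, stood at -2.66 and -2.32 in WT and at 1.61 and 1.78 in KO, 19.2-fold and 17.1-fold higher (adjusted p = 0.00997). Nrg1, a growth factor, rose from -6.36 and -6.34 in WT to -2.05 and -2.33 in KO (adjusted p = 0.00997). It was below background in WT on vehicle, where KO was at least 4.30-fold higher. After ENU the ratio of signals was 16.1-fold. The WT level there lay below the lowest signals well above background on its arrays (-4.45 and -5.06). This ratio thus rests on a signal near the floor. Epcam, an epithelial adhesion protein, was at least 2.66-fold and 4.39-fold higher (adjusted p = 0.0113). Rhbdf1, which carries Adam17 to the cell surface, was 3.39-fold and 4.09-fold higher (adjusted p = 0.0125).

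Of 20 measured proteoglycans and other matrix substrates of ADAMTS enzymes, 9 rose and 2 fell. Nid1, a basement membrane glycoprotein, stood at 0.63 and 1.33 in WT and at 4.47 and 4.91 in KO, 14.3-fold and 11.9-fold higher (adjusted p = 0.0101). Lum, a collagen-binding proteoglycan, was 7.17-fold and 7.38-fold higher (adjusted p = 0.0101), and Fbn1, fibrillin-1, 8.40-fold and 6.10-fold (adjusted p = 0.0104). Thbs1, thrombospondin-1, rose from below background in both WT groups and was at least 1.16-fold and at least 2.76-fold higher (adjusted p = 0.0102). The aggrecan gene Acan fell, from -2.20 and -0.66 in WT to -3.71 and -3.87 in KO (adjusted p = 0.0329), and Vcan, versican, did not pass (adjusted p = 0.0810).

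Markers of several liver cell types moved with genotype beside these genes. Of neutrophil and myeloid markers 10 of 11 rose, and their summed level, in multiples of the array's 75th percentile, was 4.94 to 4.96 in WT on vehicle, 7.46 to 7.61 in WT after ENU, 37.7 to 38.3 in KO on vehicle and 52.0 to 52.8 in KO after ENU. S100a9 was the largest term of this sum in every group, and Prtn3 did not pass (adjusted p = 0.926). Elane was below background in both WT groups, Ngp in WT on vehicle and Camp in WT after ENU. Of bile duct markers 6 of 7 rose, and their sum went from 2.42 to 2.47 and 3.32 to 3.38 in the WT groups to 15.6 to 15.9 and 19.7 to 20.1 in the KO groups; Cftr and Muc1 were below background in every group. Of macrophage markers 5 of 10 rose, with sums of 76.9 to 77.9, 123 to 126, 177 and 323 to 327 in the order WT vehicle, WT ENU, KO vehicle and KO ENU. Lyz2, at 3.99 and 4.85 in WT and at 6.33 and 7.26 in KO, was the largest term of the sum in both KO groups. Clec4f, Vsig4, Timd4 and Cd5l did not pass, nor did Cd163, which was lower in KO (-0.935 log2 units).

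Stellate and fibroblast markers rose in 5 of 12 cases, with sums of 94.8 to 95.4, 103 to 104, 139 to 144 and 172 to 174 in the same order. Those that rose were Lum, Pdgfra, Pdgfrb, Dpt and Tagln. Dcn, the largest term of the sum in every group, did not pass (adjusted p = 0.0853). Des, Lrat, Acta2, Reln, Colec11 and Rgs5 did not pass either, and Rgs5 was lower in KO. Of T and NK cell markers 5 of 7 rose and 1 fell, and of B cell markers 1 of 4 rose. Of endothelial markers 0 of 10 rose and 1 fell. Of hepatocyte markers 5 of 10 fell, and their sum was 2420 in WT on vehicle, 1930 to 1990 in WT after ENU, 1210 to 1280 in KO on vehicle and 1130 to 1150 in KO after ENU; the liver identity of all 4 samples is plain from Alb, at 9.80 and 9.81 in WT and at 9.22 and 9.27 in KO. The part of these cell types in the protease and TIMP values was not tested.

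**Figure D5:**
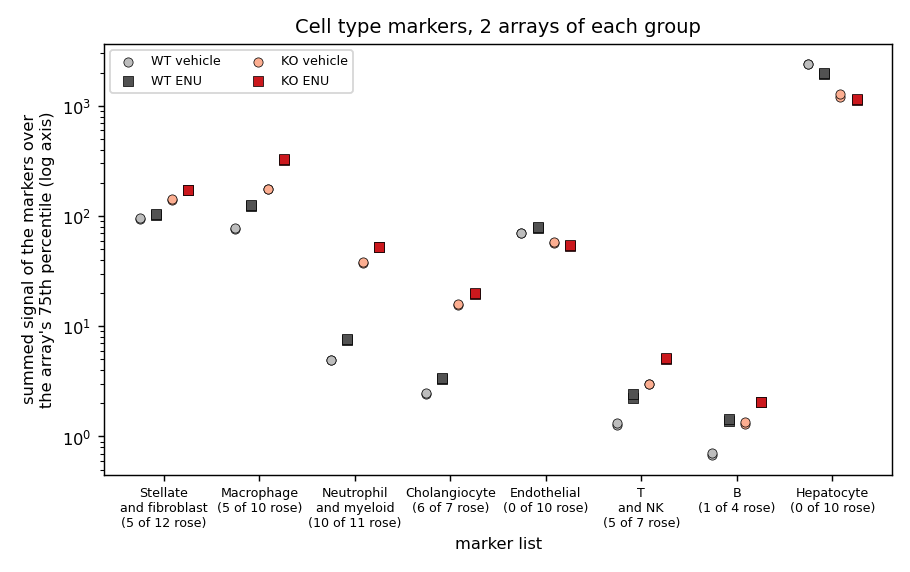
Summed signal of each cell type marker list over the array's 75th percentile (y axis, log scale), for the 2 arrays of each of the 4 groups; the number of measured markers that rose in KO stands under each list. Neutrophil, bile duct, macrophage, stellate and fibroblast, and T and NK sums are higher in both KO groups than in both WT groups. Hepatocyte and endothelial sums are lower in both KO groups, and B cell sums overlap between genotypes.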

How the data were processed

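Per the file headers, Agilent Feature Extraction 10.7.1.1 made the deposited intensity values; the version in the submitters' processing notes is 10.5.1. The authors' deposited intensity columns were the background-corrected processed signal and, for an alternative, the mean signal and local background. Each array held 43379 non-control spots for 41174 probes. Per array, 54.7% to 69.3% of spots were well above background, none was saturated, and the 75th percentile was 437 to 681. The number of arrays limits the precision. Of the 123 member probes, 96 took their gene name through a RefSeq accession and 27 through the symbol; Adam6 is now named Adam6a. Probe coordinates are those of the file headers (mm7); promoters are RefSeq's (GRCm38.p6).

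Values are log2 processed signal minus the array's 75th percentile. Spots with an outlier mark were dropped, spots of 1 probe were averaged, and the brightest passing probe stood for a gene. A fold is a bound where both arrays of a group lacked a probe of that gene well above background. The dim group's level is then taken, for each array, as the probe's own signal or the lowest signal of any probe well above background, whichever is larger. Over 156 to 181 probes spotted at least 5 times, arrays a and b of a group had a median absolute standardised difference of 0.594 to 0.726, where spot noise alone gives 0.688, and arrays of different groups 12.4 to 25.9. Each group therefore counted as 1 RNA sample. The 4 samples were fitted by genotype plus treatment, which leaves 1 residual degree of freedom, using limma 3.58.1 in R 4.3.3, tested on simulated data. Its residual is how far the ENU difference of KO departs from that of WT, so a genotype-dependent response counts as noise.

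KO arrays lay at positions 1 and 2 and WT arrays at 3 and 4 on both slides; genotype and position thus cannot be told apart. On the 4 vehicle arrays a quality metric of the negative controls lay outside its range. Named with values are all measured TIMPs, every member called, members over 2-fold in both pairs of a comparison, up to 3 bright uncalled members per class, and the 4 genes of each list with the lowest adjusted p for genotype, of which 1 gene is not reported here; the values of Plg, Acan, Vcan and Alb, of members past 2-fold in 1 genotype under ENU, and of Mmp17 as a probe exception were chosen after they were seen. Members, lists and tests were chosen with earlier results of these data known. Alternatives were normexp background (offset 50), quantile normalization, median centring, the mean of all probes, no filter on dim probes, each array left out in turn, and genes above background on all 8 arrays.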

Additional observations from a re-analysis of the deposited data

Results flagged for a closer look

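In 5 members both KO arrays lay above both WT arrays under 1 treatment and below them under the other. The difference between both treatments was not tested, since the 4 samples leave no replicate for it. The rule was not counted over all genes, so no excess among the members can be read from it. KO was higher than WT under both treatments in 32 of the 45 members and lower under both in 6. Over all 18153 genes these were 6445 and 8525, and the remainder differed in direction. KO minus WT went from 0.20 on vehicle to -1.41 after ENU for Adam11, a change of -1.62 log2 units, and from 0.84 to -0.37 for Adam33, a change of -1.21. It went from -0.17 to 1.75 for Adamts13, a change of 1.92, from -0.54 to 0.13 for Adam4, a change of 0.66, and from -0.43 to 0.34 for Mmp17, a change of 0.77.

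In 6 members both ENU arrays lay above both vehicle arrays in 1 genotype and below them in the other, which was also not tested. This too was not counted over all genes. ENU minus vehicle was 0.95 in WT and -0.67 in KO for Adam11, so the KO difference was lower by the same -1.62. For Adam15 it was 0.47 and -0.47 (-0.94), for Adamts5 0.70 and -0.21 (-0.91), and for Adamts15 0.27 and -0.44 (-0.71). For Mmp15 it was 0.07 and -0.14 (-0.20), and for Mmp17 -0.27 and 0.50 (0.77). All 3 passing probes of Adam11 were higher in KO on vehicle and lower after ENU.

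Several of these opposite signs depended on the processing. Those of Adam33 were lost with normexp (-0.19 on vehicle and -0.26 after ENU), and a second Adam33 probe gave 0.34 and -0.01. Adam4 after ENU was no longer higher in KO with normexp (-0.18), quantile normalization (-0.04) or median centring (-0.06), and Adam11 was no longer higher on vehicle with median centring (-0.02). For ENU, Adamts15 was lower in both genotypes with normexp (-0.06 in WT and -0.40 in KO). With the mean of all probes ENU minus vehicle was 0.79 in WT and 0.24 in KO for Adam15, 0.43 and 0.003 for Adamts5, and 0.17 and 0.99 for Mmp17. Adamts13 and Mmp15 kept opposite signs with normexp, quantile normalization, median centring and the mean of all probes.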

How the results depend on the processing

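Counts of members were compared over 6 alternatives and the 8 fits that leave out an array. The count that rose in KO was 26, and 25 to 27 with an array left out. The count that fell was 1; it was 2 with normexp, quantile normalization, median centring, no filter on dim probes, or only genes above background on all 8 arrays, and 1 to 2 with an array left out. Over 2-fold lower in KO on vehicle were 1 to 2 with an array left out (2 without the second WT or the first KO vehicle array), and 2 with quantile normalization, median centring or no filter. With normexp, members over 2-fold higher in KO numbered 14 on vehicle and 16 after ENU, and those higher and lower after ENU 0 and 0 in WT and 1 and 1 in KO. With no filter, over all 70 members, 7 were over 2-fold lower in KO after ENU and 9 lower after ENU in KO. Among genes above background on all 8 arrays, 17 were higher in KO on vehicle, 1 was lower after ENU in WT, and 2 were higher and 1 lower after ENU in KO. With normexp the KO difference changed sign in 4 members over both treatments (Adamts3 to -0.018, adjusted p = 0.929, Adamts6 to -0.18, Adam1a to -0.17 and Adam33 to -0.23), in 4 on vehicle (Adamts6 to -0.19, Mmp12 to -0.11, Mmp13 to -0.20 and Adam33 to -0.19) and in 4 after ENU (Adamts3 to -0.15, Adamts6 to -0.17, Adam1a to -0.05 and Adam4 to -0.18), and the ENU difference changed sign in 8 in WT and 0 in KO. Other alternatives on all 8 arrays turned at most 3 members in any of these differences. The causes were not tested.

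Over all genes 3062 rose and 2778 fell; with normexp it was 2399 and 4172, with quantile normalization 2715 and 1920, and with median centring 2737 and 4884. The median KO difference of all genes was -0.12, and -0.33 with median centring. Members dim in WT have bounds only, and the lowest signals well above background lay between -5.59 and -3.83 on the 8 arrays. No paired analysis was possible because both arrays of a group counted as 1 RNA sample, so no replicate number is left to block on. A fit with slide as a block equals the fit reported, since slide and treatment coincide.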

Other observations

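Further genes of the same lists, chosen here after their values were seen, also rose in KO. Reck, a membrane-anchored inhibitor of several MMPs, was higher by 2.47-fold on vehicle and by 3.22-fold after ENU (limma adjusted p = 0.0184). The inhibitors Timp1, Timp2 and Reck thus rose beside the enzymes, as did the broad inhibitor A2m, while Timp3 did not pass. Plaur, the urokinase receptor, was 16.5-fold and 6.17-fold higher (adjusted p = 0.0154). Hbegf, a growth factor released by Adam17, was 7.38-fold and 4.25-fold higher (adjusted p = 0.0135). Other growth factors of that list differed: Nrg1 rose, Egf fell (adjusted p = 0.0438), and Tgfa (0.268) and Btc (0.0765) did not pass. Areg and Ereg were not measured. Rhbdf2, a partner that Adam17 needs in myeloid cells, was 1.69-fold and 1.76-fold higher (adjusted p = 0.0442). The epithelial adhesion protein Cdh1, cut by Adam10, was 5.92-fold and 2.50-fold higher (adjusted p = 0.0295).

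The list genes that fell are in part products of hepatocytes. Klkb1, plasma prekallikrein, was lower by 3.0-fold on vehicle and by 2.76-fold after ENU (adjusted p = 0.0153), and Hrg, a plasma glycoprotein that binds plasminogen, was 2.25-fold and 2.68-fold lower (adjusted p = 0.0203). Tspan33, a tetraspanin partner of Adam10, was 3.0-fold and 2.81-fold lower (adjusted p = 0.0151). Pcsk6, a proprotein convertase, was 2.54-fold and 2.05-fold lower (adjusted p = 0.0243).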
